A study of Rattus norvegicus with 9 samples.

Results

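Mast cell proteases and mast cell markers were followed in the livers of rats given vehicle, CCl4 or CCl4 and rottlerin. The set holds 10 genes (Mcpt2, Mcpt10, Cpa3, Mcpt1, Tpsab1, Tpsb2, Fcer1a, Ms4a2, Kit and Hdc). The array table names 14377 genes on a probe set of their own, Mcpt10 not among them. Every probe set that lists one of the 10 was read, which gave 12 of 31042. A probe set is a group of short oligonucleotides on the array that are read together, mostly for 1 gene, though some probe sets list several. The genes were chosen by name with earlier results of these same arrays known, Mcpt2 and Mcpt10 being among the most changed, so their levels and differences are given as descriptions and no test of them is offered as support.

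The study asked whether rottlerin, an activator of large-conductance calcium-activated potassium (BK) channels, lessens liver fibrosis. All rats were male Sprague-Dawley animals, and liver RNA of 9 of them was read on Affymetrix rat arrays, each animal on its own array. The vehicle group had 3 rats, numbered 3, 4 and 5. The CCl4 group had 3 rats, numbered 1, 2 and 3, injected with carbon tetrachloride in olive oil for 8 weeks, a toxin that injures hepatocytes and leads to fibrosis. The CCl4+Rot group had 3 rats, numbered 4, 5 and 6, which had the same CCl4 course and rottlerin at 2.5 mg/kg body weight. Rottlerin was started after the first CCl4 injection and before the CCl4 course ended. No rats given rottlerin alone were analysed here, so every rottlerin value stands on a CCl4 background. The age of the rats is not given in the sources used here.

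Mast cells are tissue immune cells that store histamine, heparin and proteases in granules and release them when IgE bound to their high-affinity receptor is cross-linked. Their growth depends on the receptor Kit and its ligand, stem cell factor. In the liver they are sparse and sit mainly in portal tracts and connective tissue, and their number is known to rise in fibrotic liver. Rat mast cells are commonly divided by their granule chymases into a mucosal type, which carries rat mast cell protease 2, and a connective tissue type, which carries other chymases and tryptases.

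The genes are named here as the array table names them, and current RefSeq names (assembly GRCr8) differ for the chymases on chromosome 15. The table's Mcpt2 is Entrez gene 29266, which RefSeq lists under the symbol Mcpt1 with rMCP-1 and rMCP-2 both among its synonyms. The table's Mcpt1 is Entrez gene 29265, which RefSeq lists as Vch, while the synonym rMCP-1 is also held by Mcpt1l1. On the RefSeq map Mcpt9, the gene with Entrez identifier 29266, Mcpt1l1, Mcpt10 and Ctsg follow each other in this order. Cpa3 lies on chromosome 2, Tpsab1 and Tpsb2 on chromosome 10, Fcer1a on 13, Ms4a2 on 1, Kit on 14 and Hdc on 3.

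RefSeq promoter sequence was at hand for 8 of the 10 genes, all but Mcpt10 and Ms4a2, matched by Entrez identifier. The 250 bases before the transcript start are shown for the chymase with the widest difference on the arrays, for its close relative that did not separate the groups, and for the mast cell carboxypeptidase and the IgE-binding receptor chain, 5′ to 3′ on the strand of the gene. Capitals mark GATAA, the core read by GATA factors, on either strand (TTATC on the other). The windows, all of GRCr8, were chr15:33841356-33841605 (plus strand) for Mcpt2, chr15:33569491-33569740 (plus) for Mcpt1, chr2:104673238-104673487 (minus) for Cpa3 and chr13:88224680-88224929 (minus) for Fcer1a.
Mcpt2: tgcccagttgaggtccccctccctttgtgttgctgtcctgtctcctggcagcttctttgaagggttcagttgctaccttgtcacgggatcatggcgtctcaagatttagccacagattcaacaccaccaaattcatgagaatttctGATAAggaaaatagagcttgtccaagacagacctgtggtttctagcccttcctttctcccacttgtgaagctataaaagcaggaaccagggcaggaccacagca
Mcpt1: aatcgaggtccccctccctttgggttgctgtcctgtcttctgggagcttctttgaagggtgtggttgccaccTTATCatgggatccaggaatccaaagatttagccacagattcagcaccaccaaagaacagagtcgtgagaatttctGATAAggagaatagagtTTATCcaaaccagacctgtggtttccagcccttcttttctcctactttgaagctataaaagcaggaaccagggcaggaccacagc
Cpa3: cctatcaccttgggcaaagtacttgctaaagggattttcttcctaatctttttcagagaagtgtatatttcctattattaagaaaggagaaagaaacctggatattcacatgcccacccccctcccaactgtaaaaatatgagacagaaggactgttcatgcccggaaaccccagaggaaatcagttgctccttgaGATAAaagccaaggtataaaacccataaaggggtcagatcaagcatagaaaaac
Fcer1a: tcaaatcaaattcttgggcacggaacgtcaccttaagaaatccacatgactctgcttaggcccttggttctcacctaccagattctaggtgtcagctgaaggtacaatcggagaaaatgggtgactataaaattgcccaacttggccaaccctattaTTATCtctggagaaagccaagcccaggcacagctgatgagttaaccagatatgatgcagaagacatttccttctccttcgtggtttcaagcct

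The Mcpt2 and Mcpt1 windows were identical at 215 of 257 aligned positions (83.7%), compared with 47.9% for Mcpt2 and Cpa3 and 43.0% for Mcpt2 and Fcer1a in the same kind of global alignment. GATAA was present in 5 of the 8 windows (Mcpt2, Mcpt1, Cpa3, Tpsab1 and Fcer1a) and in 23.5% of the 33469 RefSeq rat windows of the same length. Its longer forms AGATAA and TGATAA were each in 2 of the 8, against 10.3% and 7.97% of all windows. CANNTG, the E-box, was in 6 of the 8 and in 65.5% of all windows, and its form CATGTG was in 3 of the 8 and in 12.1%. Such a match describes letters only. Of the genes with GATAA, Mcpt2, Mcpt1, Cpa3 and Fcer1a were detected on at least 3 arrays and Tpsab1 on none. Of those without it, Hdc was detected on 8 arrays, and Tpsb2 and Kit on none. A link between match and detection was not tested.

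One array stood apart. CCl4 replicate 3 had 12714 probe sets called present, compared with 15550 to 16849 on the other 8 arrays, and a median log2 signal of 7.81 against 6.79 to 7.01. The probe sets that no array detected had a median of 5.64 there and of 4.06 to 4.56 elsewhere (log2 signal). A dim probe set can therefore read high and be called absent on this array, and values that it moves most are given with and without it. The median over all probe sets differed by 0.18 on the log2 scale between CCl4 and vehicle, by -0.12 between CCl4+Rot and CCl4 and by 0.01 between CCl4+Rot and vehicle. The hepatocyte markers Alb, Ttr, Apoa1, Serpina1, Fgb, Cps1, Cyp2e1 and Hnf4a were all present on at least 3 arrays, as the label liver requires. Since whole liver was measured, more mast cells cannot be told apart from more RNA per mast cell in any value that follows.

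Of the 10 genes, each read by its main probe set, 3 to 4 were called present on a vehicle array, 4 to 7 on a CCl4 array and 6 to 7 on a CCl4+Rot array. The summed signal of the 10 genes was 9.73 to 9.94 on the log2 scale in vehicle-treated rats, 10.51 to 11.35 in CCl4-treated rats and 11.30 to 12.18 in CCl4+Rot rats. The vehicle group lay below both others, and CCl4 replicate 3, at 11.35, overlapped CCl4+Rot replicate 4, at 11.30. Without that CCl4 array the CCl4 rats read 10.51 and 10.95, below every CCl4+Rot rat. The brightest probe sets weigh most in such a sum. In CCl4+Rot replicate 5 these were the Mcpt10 probe set that names 7 genes (10.62) and Mcpt2 (10.14). The vehicle sums include signals called absent, among them those of that Mcpt10 probe set and of Tpsb2.

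**Figure D1:**
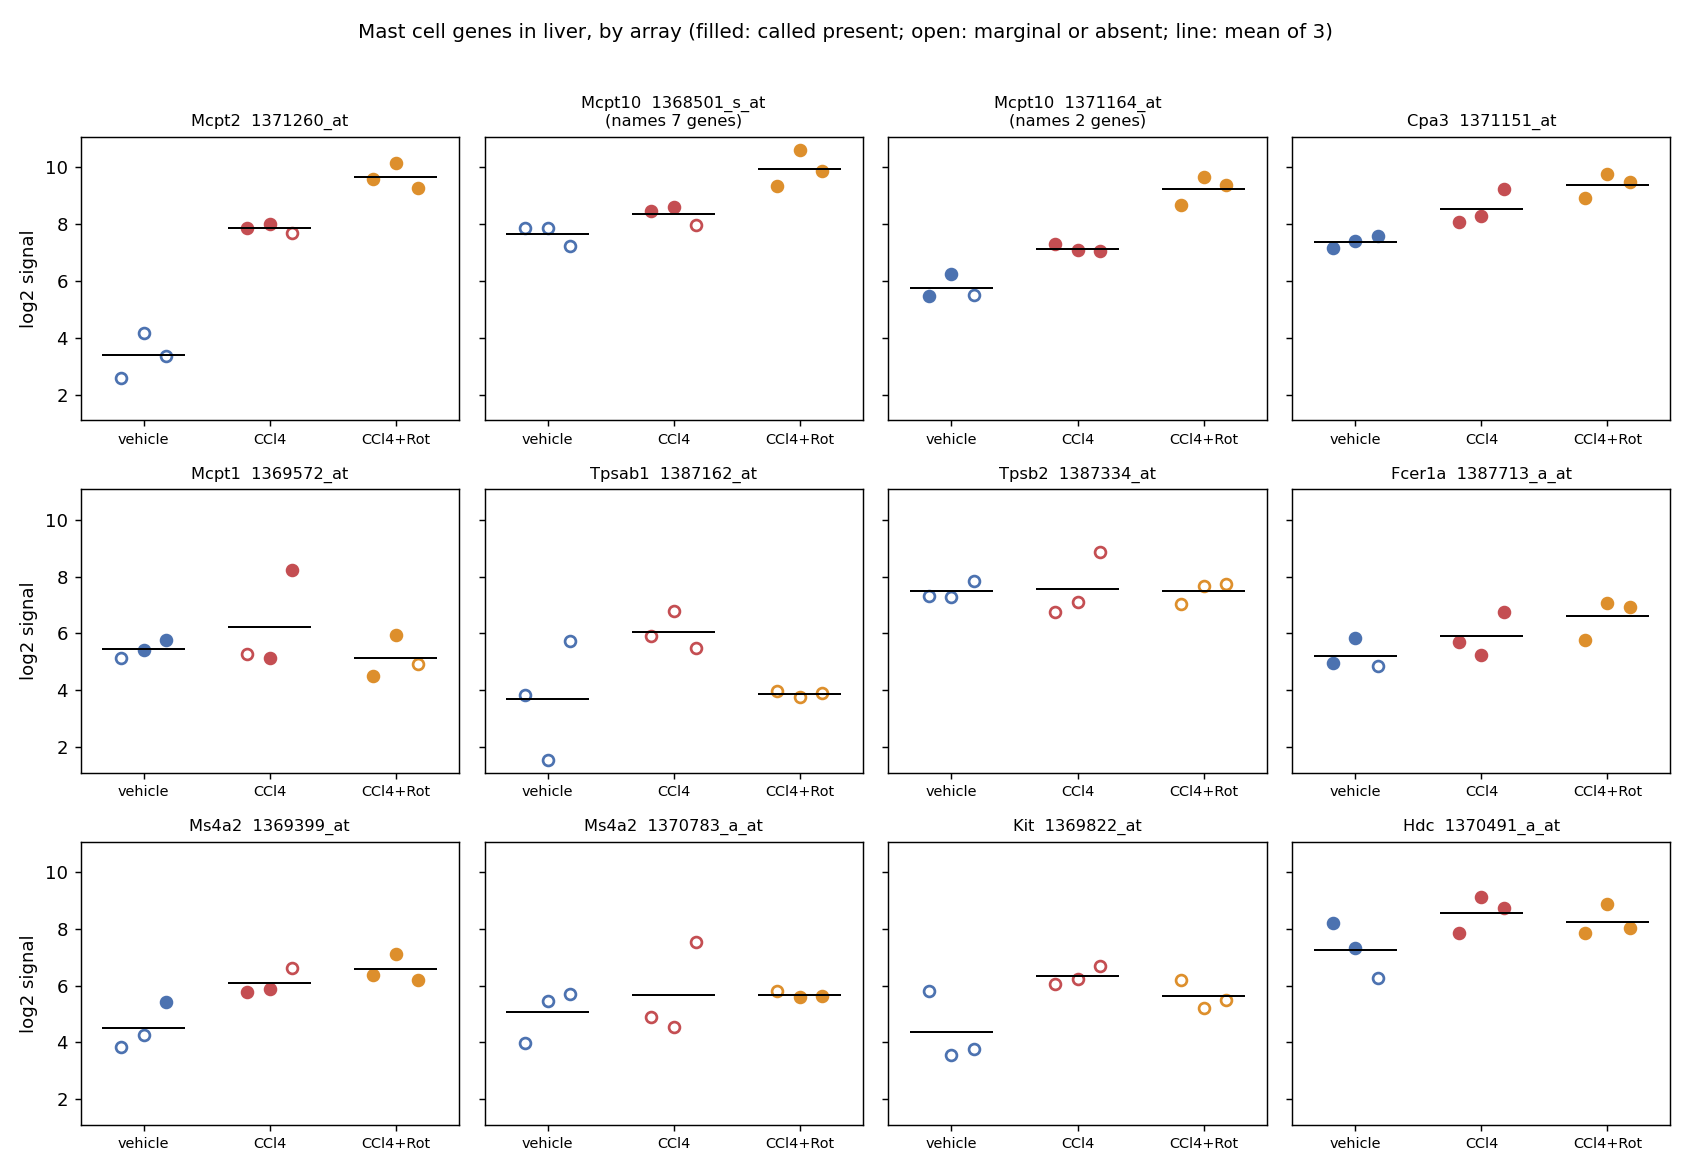
The log2 signal (vertical axis) of the 12 mast cell probe sets in each of 9 rats by group (horizontal axis), with filled points called present, open points marginal or absent, and a line at the mean of 3. Mcpt2 and both Mcpt10 probe sets separate all 3 groups, while Tpsab1, Tpsb2 and Kit have no filled point.

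Mcpt2, which the table names after the mucosal chymase and RefSeq lists with both rMCP-1 and rMCP-2, had the widest range among the 10 genes. Its log2 signal was 2.60, 4.18 and 3.36 in the vehicle-treated rats, all called absent. In the CCl4-treated rats it was 7.86, 8.02 and 7.70, of which the last, replicate 3, was called absent. In the CCl4+Rot rats it was 9.60, 10.14 and 9.27, all present. The 3 groups did not overlap anywhere, and every rottlerin-treated rat lay above every CCl4-treated rat. The group means were 3.38 ± 0.786, 7.86 ± 0.161 and 9.67 ± 0.438 (SD, n = 3). Because no vehicle array detected it, the difference from vehicle is a bound set by a floor, the lowest signal that each vehicle array detected. Vehicle signals under this floor were raised to it. At that floor the difference was at least 18.2-fold in CCl4 and at least 63.9-fold in CCl4+Rot, and a higher floor would give less. With 16 added to the antilog, the log2 difference between CCl4 and vehicle was 3.2 in place of 4.48. CCl4+Rot exceeded CCl4 by 1.82 on the log2 scale (SE 0.406, 3.52-fold), and by 1.73 without CCl4 replicate 3.

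Mcpt10, a granule serine protease of the Mcpt8 family, is read by 2 probe sets, both shared with other genes, so its signal cannot be assigned to it alone. The probe set that names Mcpt10 and 1 similar locus read 5.46, 6.26 and 5.51 in vehicle, 7.30, 7.08 and 7.04 in CCl4 and 8.66, 9.66 and 9.38 in CCl4+Rot. It was called present on 8 arrays and marginal on vehicle replicate 5, and the groups did not overlap. Its log2 difference was 1.40 between CCl4 and vehicle (2.63-fold), 2.09 between CCl4+Rot and CCl4 (4.26-fold) and 3.49 between CCl4+Rot and vehicle (11.2-fold), each with an SE of 0.321. This was the wider of the differences that the pair of probe sets gave in each comparison.

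The brighter probe set names 7 genes, among them Mcpt8 and Mcpt9. It read 7.85, 7.86 and 7.23 in vehicle, 8.45, 8.62 and 7.97 in CCl4 and 9.36, 10.62 and 9.89 in CCl4+Rot. It was called absent in all vehicle-treated rats and in CCl4 replicate 3, and present in the other 5 rats. Again no groups overlapped. CCl4+Rot exceeded CCl4 by 1.61 (SE 0.363, 3.06-fold), and by 1.42 without CCl4 replicate 3. The bound for CCl4 over vehicle was 1.62-fold, the same as the plain fold. The absent vehicle signals already lay above the lowest one detected on each array.

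Cpa3, the mast cell carboxypeptidase that is stored with the chymases, was present on all 9 arrays, including those of vehicle-treated rats. Its log2 signal was 7.15, 7.42 and 7.59 in vehicle, 8.07, 8.29 and 9.24 in CCl4 and 8.91, 9.76 and 9.50 in CCl4+Rot. All rats of both CCl4 groups lay above all vehicle-treated rats. CCl4 replicate 3 (9.24) lay above CCl4+Rot replicate 4 (8.91), so the CCl4 and CCl4+Rot groups overlapped. Their log2 difference was 0.86 (SE 0.359), and 1.21 without CCl4 replicate 3, where the groups no longer overlapped. Against vehicle, Cpa3 was 2.22-fold higher in CCl4 and 4.02-fold higher in CCl4+Rot.

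The probe set named Mcpt1, which reads the chymase gene that RefSeq lists as Vch, gave another pattern. It read 5.13, 5.41 and 5.75 in vehicle, 5.26, 5.13 and 8.23 in CCl4 and 4.50, 5.94 and 4.92 in CCl4+Rot. A single array, CCl4 replicate 3, was high, and the groups overlapped in every comparison. The log2 difference between CCl4 and vehicle was 0.77 (SE 0.821) with that array and -0.24 without it, and between CCl4+Rot and CCl4 it was -1.08 with it and -0.07 without it.

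The mast cell tryptases Tpsab1 and Tpsb2, which mark connective tissue mast cells, were called absent on all 9 arrays and are given no fold. Tpsab1 read 1.55 to 5.72 in vehicle, 5.48 to 6.78 in CCl4 and 3.74 to 3.97 in CCl4+Rot (SD 0.12). Its CCl4 values lay above its CCl4+Rot values without overlap, but none of these signals was detected above the mismatch probes. Tpsb2 read 7.29 to 7.84, 6.75 to 8.86 and 7.03 to 7.73, with CCl4 replicate 3 the highest, and its groups overlapped in every comparison.

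Among the receptors, the alpha chain of the high-affinity IgE receptor, Fcer1a, binds IgE, and the beta chain, Ms4a2, amplifies its signal. Fcer1a read 4.94, 5.84 and 4.86 in vehicle, 5.70, 5.22 and 6.75 in CCl4 and 5.78, 7.08 and 6.92 in CCl4+Rot. It was present on 8 arrays, and the groups overlapped in every comparison. Its means stood in the order vehicle, CCl4 and CCl4+Rot (5.21, 5.89 and 6.59), neighbours differing by 0.68 and 0.70 with an SE of 0.517. Without CCl4 replicate 3 those differences were 0.25 and 1.13.

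Ms4a2 read 3.85, 4.27 and 5.43 in vehicle by its main probe set, 5.76, 5.88 and 6.63 in CCl4 and 6.39, 7.13 and 6.20 in CCl4+Rot. Both CCl4 groups lay above vehicle, where only replicate 5 was called present, and they overlapped each other. The log2 difference from vehicle was 1.57 in CCl4 (2.97-fold) and 2.06 in CCl4+Rot (4.16-fold), with an SE of 0.466. A second Ms4a2 probe set was present on 2 arrays only, CCl4+Rot replicates 5 and 6, and did not separate the groups.

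Kit, the receptor for stem cell factor, was called absent on all 9 arrays, so no fold is given. It read 5.81, 3.55 and 3.77 in vehicle, 6.06, 6.23 and 6.68 in CCl4 and 6.18, 5.21 and 5.51 in CCl4+Rot, and the CCl4 rats lay above the vehicle rats. Hdc, histidine decarboxylase, makes histamine and was present on 8 arrays. It read 8.21, 7.32 and 6.27 in vehicle, 7.85, 9.11 and 8.75 in CCl4 and 7.85, 8.89 and 8.03 in CCl4+Rot. Its groups overlapped in every comparison, and unlike that of Mcpt2, Mcpt10 and Cpa3 its mean was not higher in CCl4+Rot (8.26) than in CCl4 (8.57).

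**Figure D2:**
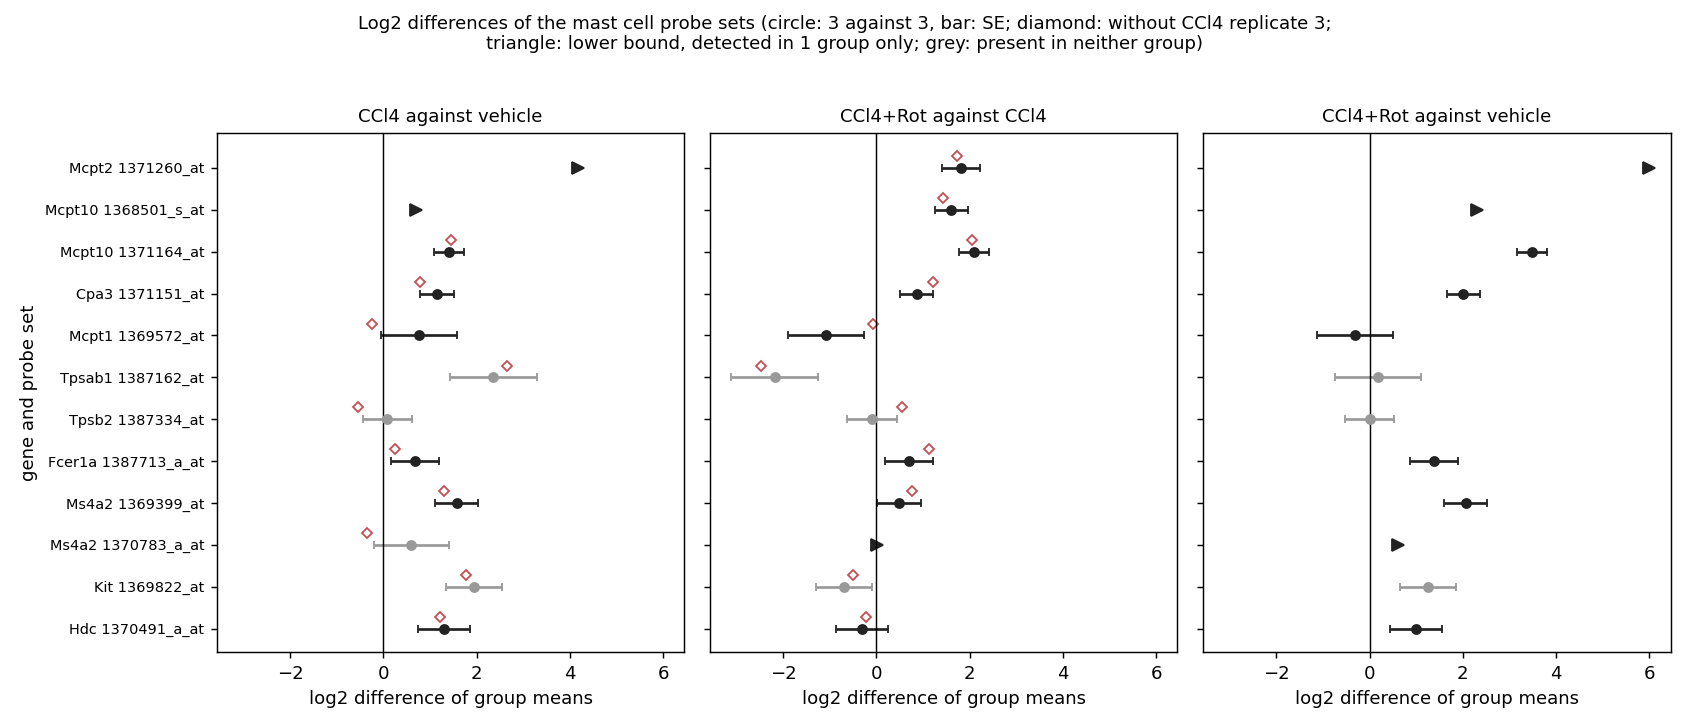
Log2 difference of group means (horizontal axis) for each mast cell probe set (vertical axis) in the 3 comparisons, with the SE of the fit as a bar, diamonds for the value without CCl4 replicate 3, triangles for a lower bound where only 1 group detected the probe set and grey where neither did. The bounds of Mcpt2 against vehicle, 18.2-fold and 63.9-fold at the lowest signal detected on each vehicle array, lie farthest to the right. The diamonds of Mcpt1 lie near 0.

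Over the 10 genes, the median log2 difference between CCl4 and vehicle was 1.23 with all 10 higher, compared with 0.13 over all 14377 genes. It was 1.05 without CCl4 replicate 3 and 0.87 after each array was centred on its median. For CCl4+Rot against CCl4 it was 0.19 with 5 of 10 higher, compared with -0.05 over all genes, and it was not settled in direction, at 0.65 without that array, -0.09 with CCl4 replicate 1 left out and 0 with CCl4+Rot replicate 5 left out. For CCl4+Rot against vehicle it was 1.32 with 8 of 10 higher, compared with 0.03. The first 2 comparisons share the CCl4 arrays, so a high CCl4 array raises the one and lowers the other. These medians include 3 genes (Tpsab1, Tpsb2 and Kit) that no array detected.

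Limma, fitted to all probe sets with calls made at 1.5-fold or more and an adjusted p under 0.05 (Benjamini-Hochberg), called none of the 12 mast cell probe sets between CCl4 and vehicle, where it called 0.0% of all probe sets and 3837 of them (12.4%) had an unadjusted p below 0.05. With rottlerin against CCl4 it called none of the 12 and 0.00322% of all, with 2057 (6.63%) at an unadjusted p below 0.05. Between CCl4+Rot and vehicle it called 2 of the 12, Mcpt2 and Mcpt10 by the probe set that names 2 genes, beside 0.0258% of all, which is 8 probe sets. In the robust form of limma, whose spread depends on the signal and is not driven by outlying probe sets, the 3 counts were 1 (Mcpt2), 0 and 4 (Mcpt2, both Mcpt10 probe sets and Cpa3), beside 1.12%, 0.00322% and 0.776% of all probe sets. The 2 calls of the third comparison fell to 0 without vehicle replicate 5, without CCl4 replicate 3 or without any of the 3 CCl4+Rot rats, and to 1 without vehicle replicate 3 or 4 or CCl4 replicate 1. As the genes were selected on these comparisons, nothing further is read from these counts.

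The values of the groups did not overlap for 6 of the 12 probe sets between CCl4 and vehicle, all higher in CCl4 (Mcpt2, both of Mcpt10, Cpa3, Ms4a2 and Kit), beside 11.1% of all probe sets higher and 7.14% lower. With rottlerin, against CCl4 alone, it was 3 higher (Mcpt2 and both of Mcpt10) and 1 lower (Tpsab1), beside 4.73% and 6.88%. Against vehicle, CCl4+Rot had 5 higher (Mcpt2, both of Mcpt10, Cpa3 and Ms4a2) and none lower, beside 11.9% and 9.15%. Without CCl4 replicate 3, an alternative chosen after seeing the data, the first count of higher probe sets was 7 beside 15.2% of all, and the second was 7 beside 12.0%, now with Cpa3, Fcer1a and Ms4a2. An exact permutation test of 3 rats against 3 cannot go below a two-sided p of 0.1.

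Within the CCl4+Rot group 1 rat stood highest. Of the 8 probe sets detected on 3 or more arrays, CCl4+Rot replicate 5 had the highest value of its group for all 8, and replicate 4 the lowest for 6. Within the CCl4 group no array led in this way, the highest value falling on replicate 3 for 4 of the 8, on replicate 2 for 3 and on replicate 1 for 1. Over the 9 arrays, Mcpt2 correlated with Cpa3 at r = 0.90, with Ms4a2 at 0.88 and with Mcpt10 at 0.84, values that hold the group differences. For deviations from the group means the same pairs gave 0.15, 0.31 and 0.34, and over the 21 pairs of the 7 detected genes such values ran from -0.30 (Ms4a2 with Hdc) to 0.93 (Cpa3 with Mcpt1), 4 of them below 0. These are descriptions over 9 points from shared arrays, CCl4 replicate 3 among them.

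Granule genes outside the 10 were taken from a fixed list of 21, of which 12 were measured by a probe set of their own. Limma called none of the 12 in any comparison. Cma1, which encodes mast cell chymase 1, is described after its values were seen. It read 1.56, 3.27 and 1.54 in vehicle, 5.64, 3.22 and 4.51 in CCl4 and 6.47, 7.67 and 7.45 in CCl4+Rot, and was called present on 2 arrays, both CCl4+Rot. All CCl4+Rot rats lay above all other rats, at least 6.23-fold over CCl4 (limma adjusted p = 0.638) and at least 15.3-fold over vehicle (adjusted p = 0.14, and 0.016 in the robust form). Mcpt1l1, which also holds the synonym rMCP-1, was present only in CCl4+Rot replicate 6. It read 1.74, 1.24 and 5.03 in vehicle, 5.64, 4.36 and 4.98 in CCl4 and 5.36, 5.89 and 7.03 in CCl4+Rot. The CCl4+Rot rats lay above the vehicle rats, at least 4.35-fold (limma adjusted p = 0.377), and the other comparisons overlapped. Mcpt3 and Mcpt4 were absent on all arrays. The Mcpt9 probe set was present in 2 vehicle and 3 CCl4+Rot rats and overlapped between groups.

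The lysosomal and granule membrane protein Cd63, which many cell types express, read 10.98, 10.85 and 10.87 in vehicle, 12.60, 13.19 and 12.38 in CCl4 and 12.91, 12.27 and 12.89 in CCl4+Rot. It separated both CCl4 groups from vehicle, by 1.82 (SE 0.269, limma adjusted p = 0.171, robust 0.00343) and 1.79 (adjusted p = 0.161, robust 0.00295), and differed by -0.03 between CCl4+Rot and CCl4 (adjusted p = 0.983). The lysosomal protease Ctsd was 0.77 higher in CCl4 than in vehicle (adjusted p = 0.231, robust 0.0291). Srgn, serglycin, the core protein on which granule proteases are packed, was 0.41 higher in CCl4+Rot than in CCl4, without overlap, at an adjusted p of 0.749. Ctsc and Ndst2, an activator of granule proteases and a heparin sulfotransferase, differed by 0.33 or less between CCl4 and vehicle and between CCl4+Rot and CCl4, with adjusted p-values of 0.765 or more.

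Of 25 growth factors, alarmins and receptors, 22 were measured, 11 of them were present on no array, and limma called none. Kitlg, which encodes stem cell factor, was present on all 9 arrays. It read 7.11, 6.50 and 6.94 in vehicle, 7.52, 8.11 and 8.20 in CCl4 and 7.94, 8.81 and 8.78 in CCl4+Rot. Both CCl4 groups lay above vehicle and overlapped each other. The differences were 1.09 (SE 0.317, limma adjusted p = 0.275) between CCl4 and vehicle, 0.56 (adjusted p = 0.765) between CCl4+Rot and CCl4 and 1.66 (adjusted p = 0.192, robust 0.0261) between CCl4+Rot and vehicle. The chemokine Cxcl12 differed by -0.92 between CCl4 and vehicle (adjusted p = 0.271), and the interleukin 4 receptor Il4r gave -0.74 (adjusted p = 0.239, robust 0.0408). Il18 differed by 0.46 between CCl4+Rot and CCl4 (adjusted p = 0.76). Il33, an alarmin that activates mast cells and lies outside the rule for named genes, gave -1.07 between CCl4 and vehicle (adjusted p = 0.317).

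The IgE receptor pathway was represented by 23 measured genes of 26 listed, 6 of them (Plcg2, Gab2, Grap2, Pik3cd, Rasgrp4 and Milr1) present on no array. Their median log2 difference between CCl4 and vehicle was 0.28 with 20 of 23 higher, beside 0.13 over all genes. The medians of the list were 0.22 between CCl4+Rot and CCl4 and 0.54 between CCl4+Rot and vehicle, beside -0.05 and 0.03 over all genes, and limma called none. Fcer1g, the signalling chain shared with other Fc receptors and expressed by macrophages as well, was 0.72 higher in CCl4 than in vehicle (adjusted p = 0.38) and 1.16 higher in CCl4+Rot than in vehicle (adjusted p = 0.307, robust 0.0361). The kinase Btk was 0.67 higher in CCl4+Rot than in CCl4, without overlap (adjusted p = 0.749). Between CCl4 and vehicle the kinases Syk and Prkcb differed by 0.62 and 0.60 (adjusted p = 0.48 and 0.53), and by 0.27 and 0.46 without CCl4 replicate 3. With rottlerin against CCl4 the inhibitory phosphatase Ptpn6 and the inhibitory receptor Cd200r1 differed by 0.48 and 0.57 (adjusted p = 0.765 for each), and by 0.27 and 0.64 without that array.

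Of 13 mast cell transcription factors, 10 were measured and none was called by limma. Gata2, a main regulator of mast cell identity, was absent on all 9 arrays. Lmo2, Stat5a and Mitf differed by 0.46, 0.42 and 0.42 between CCl4 and vehicle (adjusted p = 0.514, 0.581 and 0.625), and by 0.31, 0.08 and 0.32 without CCl4 replicate 3. Between CCl4+Rot and CCl4 the differences of Stat5a, Meis1 and Mitf were -0.35, 0.25 and -0.19 (adjusted p = 0.802, 0.822 and 0.898), and -0.01, 0.07 and -0.09 without that array.

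Mediator synthesis was read by 10 of 13 genes. Ptgs2, the inducible cyclooxygenase, read 5.82, 5.44 and 5.91 in vehicle, 6.89, 7.84 and 7.40 in CCl4 and 7.71, 8.09 and 8.06 in CCl4+Rot, so that vehicle lay below both other groups. Its differences were 1.65 (SE 0.276, limma adjusted p = 0.178, robust 0.0367), 0.58 (adjusted p = 0.752) and 2.23 (adjusted p = 0.097, robust 0.0103). Alox5ap, which presents arachidonate to 5-lipoxygenase for leukotriene synthesis, separated all 3 groups, by 0.55 (adjusted p = 0.277), 0.39 (adjusted p = 0.75) and 0.94 (adjusted p = 0.191, robust 0.0262). Pla2g4a differed by 0.84 between CCl4 and vehicle (adjusted p = 0.36) and Ptgs1 by 0.41 between CCl4+Rot and CCl4 (adjusted p = 0.765).

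The histamine receptors Hrh1, Hrh2, Hrh3 and Hrh4 were absent on all 9 arrays, and Hnmt, which methylates histamine, was present on 1. Aoc1, the diamine oxidase that breaks histamine down, was present on all 9 and was 1.39 higher in CCl4 than in vehicle, without overlap (SE 0.421, adjusted p = 0.285). It differed by 0.45 between CCl4+Rot and CCl4 (adjusted p = 0.814). Among targets of mast cell proteases, the protease-activated receptors F2rl1 and F2rl2 were absent on all arrays. Agt, the angiotensinogen from which chymase-made angiotensin derives, differed by -0.43 between CCl4 and vehicle (adjusted p = 0.444), and Agtr1a, Tgfbr1 and Mmp3 by -0.04, 0.27 and 0.99 (adjusted p = 0.945, 0.576 and 0.493). Without CCl4 replicate 3, Agt differed by -0.23, Agtr1a by 0.10, Tgfbr1 by 0.27 and Mmp3 by 0.39. Mmp9, a protease that chymase activates, was present on 1 CCl4 and 1 CCl4+Rot array. Its bound for CCl4 over vehicle was 3.98-fold (limma adjusted p = 0.252). No vehicle signal lay under the floor, so this bound is the plain fold, and the CCl4 mean includes arrays that did not detect Mmp9.

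In all, 112 such genes were listed and 90 measured. Limma called 0 of the 90 in each comparison. At an unadjusted limma p below 0.05 were 18, 7 and 22 of the 90, beside 12.4%, 6.63% and 8.31% of all probe sets. Its robust form called 4 (Cd63, Ctsd, Il4r and Ptgs2), 0 and 6 (Cma1, Cd63, Kitlg, Fcer1g, Alox5ap and Ptgs2), beside 1.12%, 0.00322% and 0.776% of all.

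**Figure D3:**
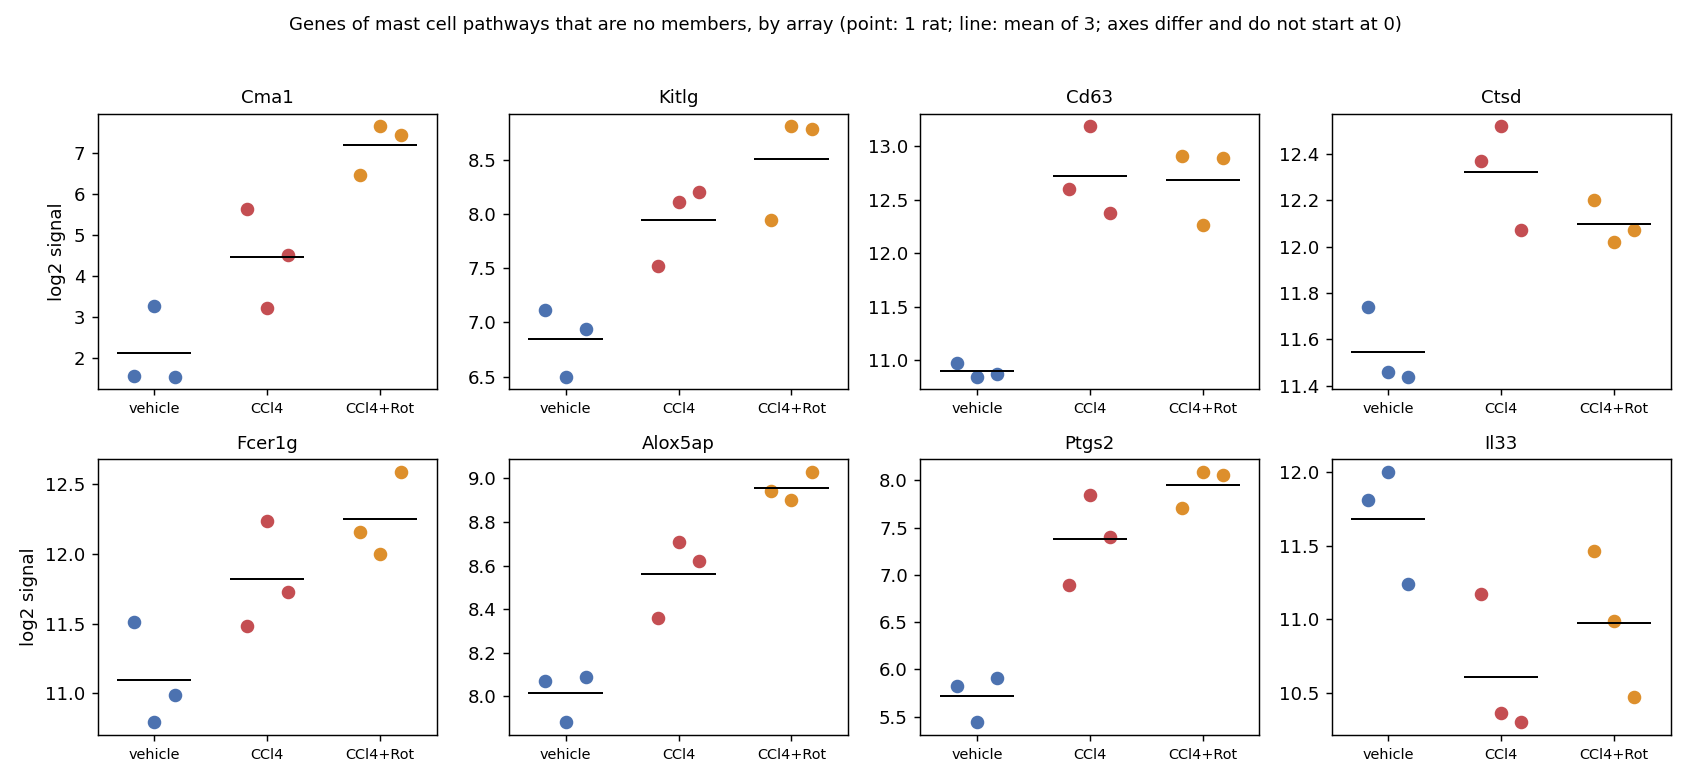
The log2 signal (vertical axis, scaled per gene) of 8 genes of mast cell pathways in each of 9 rats by group (horizontal axis), with a line at the mean of 3. The 3 CCl4+Rot rats lie above all other rats for Cma1 and Alox5ap, and Cd63 separates vehicle from both CCl4 groups but not these from each other. All points are filled whatever their detection call, and Cma1 was called present on 2 arrays only, both CCl4+Rot.

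Markers of other cell types moved in part with the mast cell genes. The 10 markers of stellate cells and myofibroblasts, the collagen-making cells of the fibrotic liver, were all present on at least 3 arrays, and their summed log2 signal was 13.21 to 13.94 in vehicle, 14.35 to 15.18 in CCl4 and 14.93 to 15.27 in CCl4+Rot. Col3a1, with means of 12.67, 13.84 and 14.35, was the brightest and weighs most in this sum. Between CCl4+Rot and CCl4, 7 of the 10 were higher and 3 lower. The lower ones were Acta2 (-0.28), Des (-0.02) and Timp1 (-0.43). The 6 measured macrophage markers of 10 ran from 14.05 to 14.49, 14.52 to 14.78 and 14.81 to 14.98. The 5 measured neutrophil markers of 8, of which Camp was present on no array, ran from 8.35 to 10.30, 9.26 to 10.15 and 10.48 to 11.22. The macrophage and neutrophil sums, like Mcpt2, were higher in every CCl4+Rot rat than in every CCl4 rat. Taken singly, this held for the macrophage markers Clec4f and Cd5l, while Cd68, Cd163, Csf1r and Lyz2 overlapped. Among the neutrophil markers it held for S100a9, the brightest, and S100a8, while Camp, Ncf1 and Csf3r overlapped. The part of macrophages and neutrophils in the mast cell values was not tested.

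Basophils share Fcer1a, Ms4a2, Hdc and proteases of the Mcpt8 family with mast cells. Of 11 basophil and eosinophil markers 5 were measured, and Prg2, Epx, Il5ra and Ccr3 were absent on all 9 arrays. The summed log2 signal of the 5, which is mainly that of the remaining gene, Siglec5, was 7.76 to 8.76 in vehicle, 8.45 to 10.09 in CCl4 and 8.83 to 9.88 in CCl4+Rot, with CCl4 and CCl4+Rot overlapping. Mcpt8 and Prss34, also on this list, had no probe set of their own. Mcpt8 is among the genes named by the brighter Mcpt10 probe set. These values therefore do not show whether basophils were present or absent. The 11 measured markers (of 14) of NK and cytotoxic T cells, which carry related granule proteases, ran from 10.04 to 10.53, 9.64 to 10.92 and 10.37 to 10.73, and the 4 measured (of 8) of B and plasma cells from 7.15 to 8.30, 7.91 to 9.18 and 7.72 to 8.0. The cholangiocyte sum, over 6 of 7 markers, was 9.86 to 10.06, 11.36 to 12.41 and 10.34 to 11.26, lower in CCl4+Rot than in CCl4. That order is set by Spp1, whose means were 6.20, 11.20 and 9.10, while Krt19 (7.02, 7.22 and 7.04) and Epcam (9.49, 9.97 and 9.67) differed less and Cftr (4.79, 5.72 and 6.15) had its highest mean in CCl4+Rot. The hepatocyte sum, over 8 of 9, was 17.74 to 17.88, 17.32 to 17.88 and 17.83 to 17.91.

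**Figure D4:**
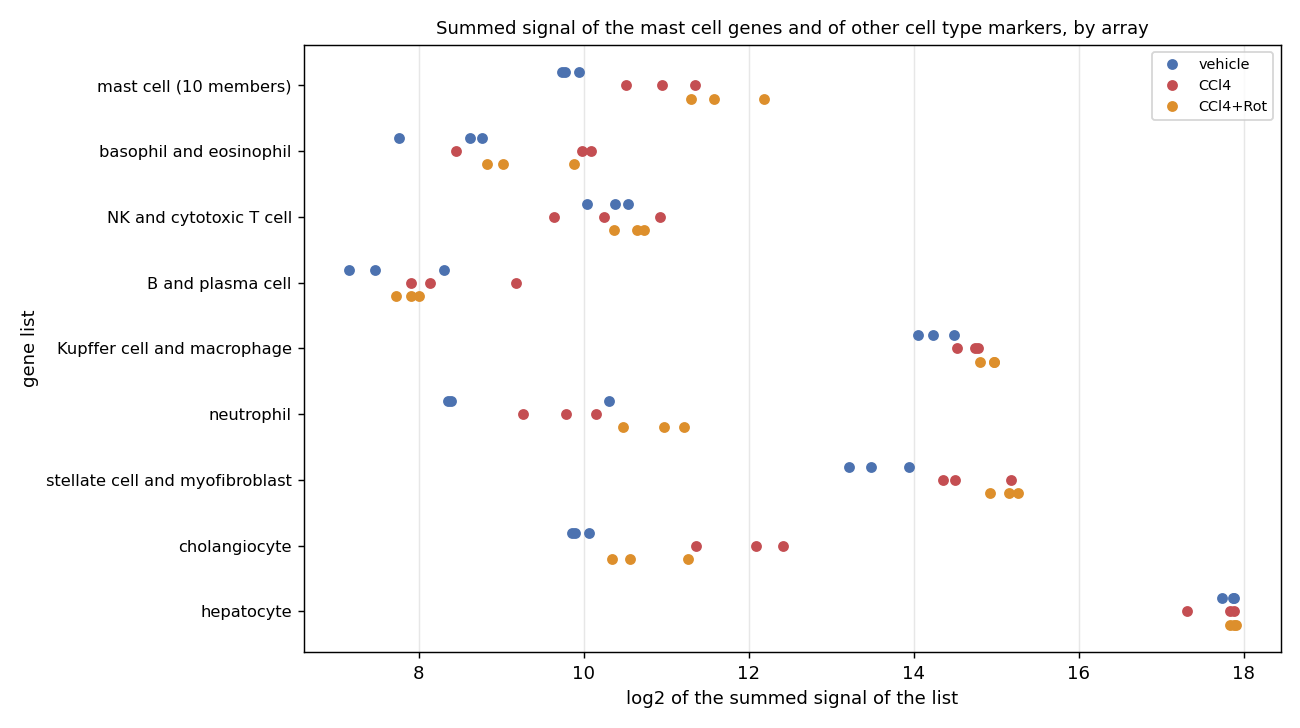
Log2 of the summed signal (horizontal axis) of the 10 mast cell genes and of 8 other marker lists (vertical axis), with 1 point per rat coloured by group. The mast cell, macrophage and stellate sums of all vehicle-treated rats lie below those of both other groups, and the cholangiocyte sum, carried by Spp1, is highest in CCl4. The brightest probe sets weigh most in each sum, and the mast cell sum includes an Mcpt10 probe set that names 7 genes.

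The 7 mast cell genes present on at least 3 arrays (all but Tpsab1, Tpsb2 and Kit) were averaged, after centring, into a profile that ran from -1.37 to -1.0 in vehicle, from -0.05 to 0.85 in CCl4 and from 0.44 to 1.47 in CCl4+Rot. Among 12982 probe sets naming 1 gene and present on at least 3 arrays, the 10 most like this profile by Pearson r over the 9 arrays were Cchcr1 (0.958), Cpxm1 (0.954), Nid2 (0.953), Col6a2 (0.929), Slc10a2 (0.928), Smad2 (0.927), Olfml1 (0.926), Kitlg (0.923), MGC109340 (0.923) and Ptgs2 (0.919). Nid2 and Col6a2 encode matrix proteins, and Kitlg and Ptgs2 were described above. The r of deviations from the group means, which leaves the group differences out, was 0.924 for Smad2, 0.835 for Nid2 and 0.238 for Ptgs2, so the likeness of Ptgs2 lay mostly between groups. Only 4 of the 10 remained among the 10 most alike with Spearman's rho, 4 without CCl4 replicate 3 and 0 with Mcpt10, the brightest of the 7, as the sole reference, so the order among these genes is loose.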

How the data were processed

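RNA of frozen liver was measured on Affymetrix Rat Genome arrays with biotin-labelled cRNA, 1 array per rat. The authors deposited 1 table of log2 signals and detection calls (P, M and A for present, marginal and absent). MAS5 and affy are named in the submitters' processing notes, and versions and the genome build are not given in the sources used here. The deposited log2 values had a common trimmed mean of 500.0 on the antilog scale on every array, and were not normalized again. Of 31099 probe sets, 57 controls were removed.

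One linear model with 3 group means was fitted to all 9 arrays (limma 3.58.1, R 4.3.3), and p-values were adjusted over 31042 probe sets by the Benjamini-Hochberg method. The 1.5-fold threshold is that of the methods, which name no test for the arrays. The fits were tested on simulated data. The number of arrays limits the precision.

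The members and gene lists were chosen with earlier results of these data known. A gene was read by its probe set of highest mean signal among those naming it alone. Only Mcpt10 had none, and its brightest shared probe set was used. Every member is named, with every gene of a list of 8 or fewer, the 3 of smallest p in CCl4 against vehicle and in CCl4+Rot against CCl4 of longer lists (present on at least 3 arrays), and the 10 probe sets most like the members. One gene that fell under this rule is not reported here. A gene present in neither group has no fold. One present in 1 group has a bound, which depends on the floor used. Promoter windows are from RefSeq (GRCr8), aligned globally with scores of 1 for a match, -1 for a mismatch and -2 for a gap.

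Alternatives were quantile normalization, centring on medians, 2 filters on low values, only the groups compared, the robust spread (statmod 1.5.0), array weights, the methods' t-test on the same values, each array left out, a replicate block on the rat number, the average over probe sets of 1 gene, and log2 of the antilog plus 16. After seeing the data, the Mcpt10 probe set naming 2 genes and the group overlap without CCl4 replicate 3 were added.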

Additional observations from a re-analysis of the deposited data

How the results depend on the processing

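The median log2 difference of the 10 genes kept its direction under all alternatives run in both comparisons with vehicle. Between CCl4+Rot and CCl4 it ran from -0.09 to 0.65 with 1 array left out, and kept its direction under the other alternatives. Counts of calls depended on the fit. Between CCl4 and vehicle, calls rose from 0 of 12 mast cell probe sets to 1 among probe sets present on at least 3 arrays, 1 without the lowest 30%, 1 with the robust spread and 4 with the methods' t-test before adjustment, and from 0 of 90 list genes to 2, 4 and 9 with the presence filter, the robust spread and that t-test. Between CCl4+Rot and CCl4 only the unadjusted t-test changed the counts, to 4 mast cell probe sets and 1 list gene. Between CCl4+Rot and vehicle, the 2 mast cell calls became 1 with quantile normalization or median centring, 0 with only the groups compared, 3 with the presence filter or array weights, 4 with the robust spread, 5 with the unadjusted t-test, 0 after its adjustment, and 0 to 2 with 1 array left out, and the 0 list genes became 3 with the presence filter, 1 without the lowest 30%, 6 with the robust spread, 3 with array weights and 16 with the unadjusted t-test. Of the 10 genes most like the mast cell profile, 4 were shared with Spearman's rho, 4 without CCl4 replicate 3 and 0 with the brightest member alone. The causes were not tested. A filter leaves fewer probe sets to adjust for, and its fit was also rerun on those alone.

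With the replicate block, the rat number as a random effect, the mast cell counts were 0, 0 and 2 and the list counts 0 in each comparison. Deviations of same-numbered rats correlated at -0.09, -0.005 and -0.013. These values gave no sign that the numbers pair the rats, but so few pairs cannot settle it. Mcpt1, Tpsab1 and Tpsb2 changed sign in at least 1 setting, and none of the other 7 genes did. With the Mcpt10 probe set naming 2 genes, chosen after seeing the data, its differences were 1.40, 2.09 and 3.49 in place of 0.70, 1.61 and 2.31.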
